A study of Homo sapiens with 24 samples.

Results

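RNA of KG-1a cells after 24 h with 8-amino-adenosine (8AA) was compared with RNA of untreated KG-1a cells of the same time point. The libraries were picked by their labels, with earlier results of these data known. They are 4 of the 24 libraries of the series: 8AA replicates A and B and untreated replicates A and B. KG-1a and MV4-11 are established human acute myeloid leukemia (AML) cell lines, both labelled WT and obtained from a cell bank. Cells were kept in Iscove's medium with fetal bovine serum and antibiotics and were left untreated or given 1 μM 8AA or 1 μM 8-chloro-adenosine (8CA) for 8 h or 24 h, with 2 libraries in each of the 12 groups. Each line stands for a single leukemia, no vehicle is named for the untreated groups, and nothing in the labels says whether replicates A and B were separate cultures, so p-values measure only the spread between these libraries, which may be technical.

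8AA is an analog of the ribonucleoside adenosine that enters cells through nucleoside transporters and is phosphorylated by adenosine kinase. Its triphosphate can be used in place of ATP, also by RNA polymerases, and RNA synthesis is a main target of such analogs. In cells whose transcription is slowed, short-lived transcripts are lost sooner than long-lived ones, and in growing leukemia cells much of the RNA output serves ribosome assembly, amino acid supply and protein folding.

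The total count was 20044230 and 18633963 in untreated replicates A and B and 22888069 and 19071824 in 8AA replicates A and B, within the range of 18633963 to 24520078 over all 24 libraries. Line markers are given in CPM, counts scaled to library size, here with TMM factors over all 24 libraries. CD34, the surface marker of immature blood cells, lay between 403 and 646 CPM in the 4 libraries and at no more than 0.173 CPM in MV4-11, MEIS1 was at 0 in each, and FLT3, a receptor that MV4-11 expresses at 434 CPM or more, did not exceed 1.35 CPM. Not every listed marker separated the lines in the direction of its name. HOXA7 and HOXA9, listed for MV4-11, were at 46.1 to 70.4 and 22.1 to 27.2 CPM in the 4 libraries and at no more than 0.0490 and 9.49 CPM in MV4-11, and SPN and MYB, listed for KG-1a, were higher in MV4-11. Hemoglobin genes HBA1, HBA2 and HBB and the platelet genes PF4 and PPBP were at 0 in all 4, while ITGA2B, the platelet integrin, was at 57.8 to 71.2 CPM and passed the test at 0.14 ± 0.06 log2 for 8AA against untreated. The T cell gene CD3D was at 211 to 263 CPM and was expressed in every KG-1a library of the series. CD3E, another T cell gene, was at 36.0 and 36.3 CPM untreated and at 80.5 and 68.1 CPM with 8AA (log2 1.00 ± 0.09), the 1 called gene among 5 tested T and NK cell markers. CPM below are scaled over the KG-1a libraries.

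The 2 libraries of the 8AA group differed from each other more than any other pair by 3 measures, chi-square, SD and genes apart by over 0.5 log2, but not by genes apart by over 1 log2. A chi-square comparison gave 12.3 per degree of freedom for this pair, against 1.43 to 5.2 for the other 11 pairs. The SD over genes of the log2 difference between replicates was 0.193, and it was 0.107 to 0.157 in the others. Of 8564 genes compared in all pairs, 137 differed by over 0.5 log2 in this pair, against 66 to 103 in the others, and 14 by over 1 log2, against 9 to 25. Of 8392 expressed genes, those whose log2 CPM averaged 4 or more in the 4 libraries, 82 differed by more than 0.5 log2 between 8AA replicates A and B, 80 of them higher in B. The genes furthest apart were TMED7, a cargo receptor of the secretory pathway at 16.1 CPM in A and 33.0 CPM in B, and NOTCH2NL at 15.0 and 27.7 CPM. The 2 higher in A were ZNHIT2, at 18.3 CPM in A and 12.8 CPM in B, and DHRS13, at 23.4 and 16.5 CPM.

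The difference between the 8AA replicates moved with the length and base composition of the genes. The genes were split into 5 bins of equal size by exon length or GC content. In the bin of shortest genes A exceeded B by a median of 0.16 log2, and in the bin of longest genes the median of A minus B was -0.10. From the lowest to the highest bin of GC content the median of A minus B ran from -0.19 to 0.15. Across 8231 genes, which are not independent replicates, Spearman's rho of A minus B was -0.52 with exon length and 0.65 with GC content. The same pair of values was -0.11 and 0.63 for untreated cells at 8 h, a pair with a like GC trend and a weaker length trend. Because of this, where CPM are given below, the 8AA libraries are shown one by one. Fold changes and most medians of gene lists are over both libraries and do not show this difference. The change with 8AA against untreated also ran with exon length. Its median was -0.12 log2 in the bin of shortest genes and 0.04 in the bin of longest genes. Over the bins of GC content the median lay between -0.05 and -0.03.

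**Figure D1:**
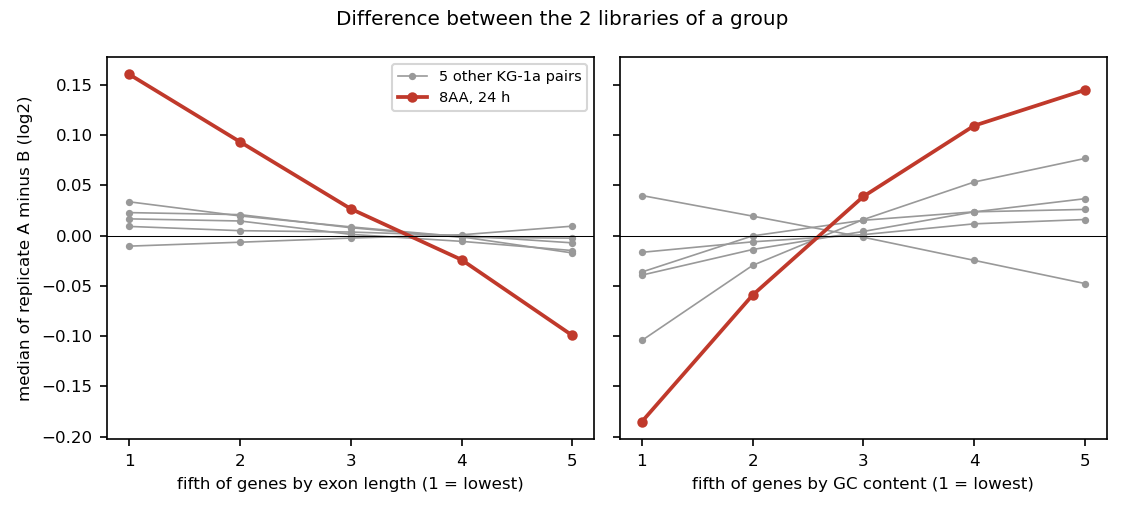
Median log2 difference between replicates A and B of each KG-1a group, over 5 equal bins of expressed genes. The genes are ordered by exon length (left, 8379 genes) or GC content (right, 8231 genes). The 8AA pair at 24 h (red) runs from 0.16 to -0.10 with length and from -0.19 to 0.15 with GC content, a wider range than the 5 other pairs (grey).

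Of 12711 genes tested with edgeR, 6600 (51.9%) passed an adjusted p of 0.05 for 8AA against untreated at 24 h, 3376 lower (26.6%) and 3224 higher (25.4%). Counts of gene list members below are to be read against these shares. The median log2 fold change of all genes was 0.01. TMM scaling centres the typical gene, so this value is largely set by the scaling and all changes are relative. A loss of RNA common to all genes would not show. The median was 0.11 by library size alone and 0.09 by upper-quartile scaling. Scaling by library size alone left 7012 calls, of which 35.5% were lower against 51.2% in the main fit, and upper-quartile scaling 6883 calls with 38.8% lower. At least a 2-fold change was seen in 597 called genes, 436 higher and 161 lower. The 2 untreated and 2 8AA values did not overlap for 9161 of the 12711 genes and for 6587 of the 6600 called. With 2 libraries per group, values of an unchanged gene often do not overlap either. The calls rest on the same values, so the overlap is a description and no separate support. In bulk RNA, fewer cells of a type and less RNA per cell cannot be told apart.

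**Figure D2:**
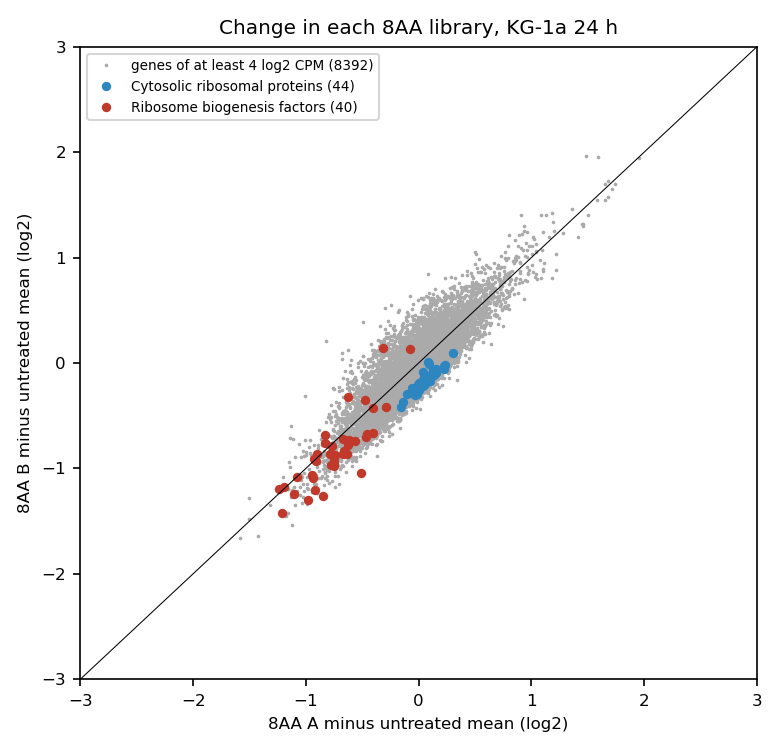
Log2 change of each gene in 8AA replicate A (x) and replicate B (y) against the mean of the untreated libraries, for 8392 expressed genes (grey); the black line marks equal change. The 44 ribosomal protein genes (blue) all lie below the line, and the ribosome biogenesis factors (red) lie mostly in the lower left.

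The genes whose 8AA and untreated values were furthest apart rose from low or moderate levels. TP53INP1, a p53 target that takes part in autophagy and cell death, was at 1.81 and 1.69 CPM untreated and at 10.1 and 11.6 CPM with 8AA. Its log2 fold change was 2.62 ± 0.20 (SE; adjusted p = 4.76e-08). PIK3IP1, an inhibitor of PI3-kinase, went from 4.08 and 3.70 CPM to 18.9 and 18.8 CPM. Groups that lie apart with little spread are what these genes were chosen for, so their values are a description. MYCN, a paralog of MYC, rose from 2.27 and 2.01 CPM to 11.8 and 9.21 CPM (log2 2.30 ± 0.16). TXNIP, which binds thioredoxin and restrains glucose uptake, rose from 62.0 and 64.5 CPM to 208 and 199 CPM (1.69 ± 0.05; adjusted p = 5.33e-12). TNFAIP3, a ubiquitin-editing inhibitor of NF-κB, rose from 26.4 and 28.2 CPM to 87.5 and 90.5 CPM (1.71 ± 0.07). HEMGN, a nuclear protein of blood progenitors, was at 18.2 and 21.6 CPM untreated and 77.4 and 76.8 CPM with 8AA. The other 6 genes of this group were SAMSN1-AS1, ERVFRD-1, ZFHX3, PBXIP1, COL24A1 and LINC01089, with log2 fold changes of 1.69 to 2.20.

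Among the genes that fell, several serve amino acid and one-carbon supply. SLC7A5, the light chain of the large neutral amino acid transporter LAT1, was at 384 and 403 CPM untreated and at 131 and 125 CPM with 8AA (log2 -1.62 ± 0.05; adjusted p = 1.39e-11). PSAT1, of serine synthesis, fell from 180 and 178 CPM to 63.2 and 64.0 CPM (-1.50 ± 0.05). The mitochondrial folate enzymes ALDH1L2 (-1.81 ± 0.12) and MTHFD1L (-1.33 ± 0.06) also fell. PUS7, a pseudouridine synthase, went from 58.1 and 54.8 CPM to 19.9 and 23.1 CPM, and CA2, carbonic anhydrase 2, from 137 and 140 CPM to 51.5 and 44.2 CPM. The angiogenic factor VEGFA was at 11.8 and 13.2 CPM untreated and 4.93 and 4.38 CPM with 8AA. VPS9D1-AS1, ANK2, RGS16, NSMF and PLBD2 completed the 12, with log2 fold changes of -1.64 to -1.25. All 24 genes kept their direction and call in each of the 16 other settings tried. A choice by wide gaps between the same values favors this, so it is no separate support. SAMSN1-AS1 and VPS9D1-AS1 are antisense genes, and whether reads were counted by strand is not stated.

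**Figure D3:**
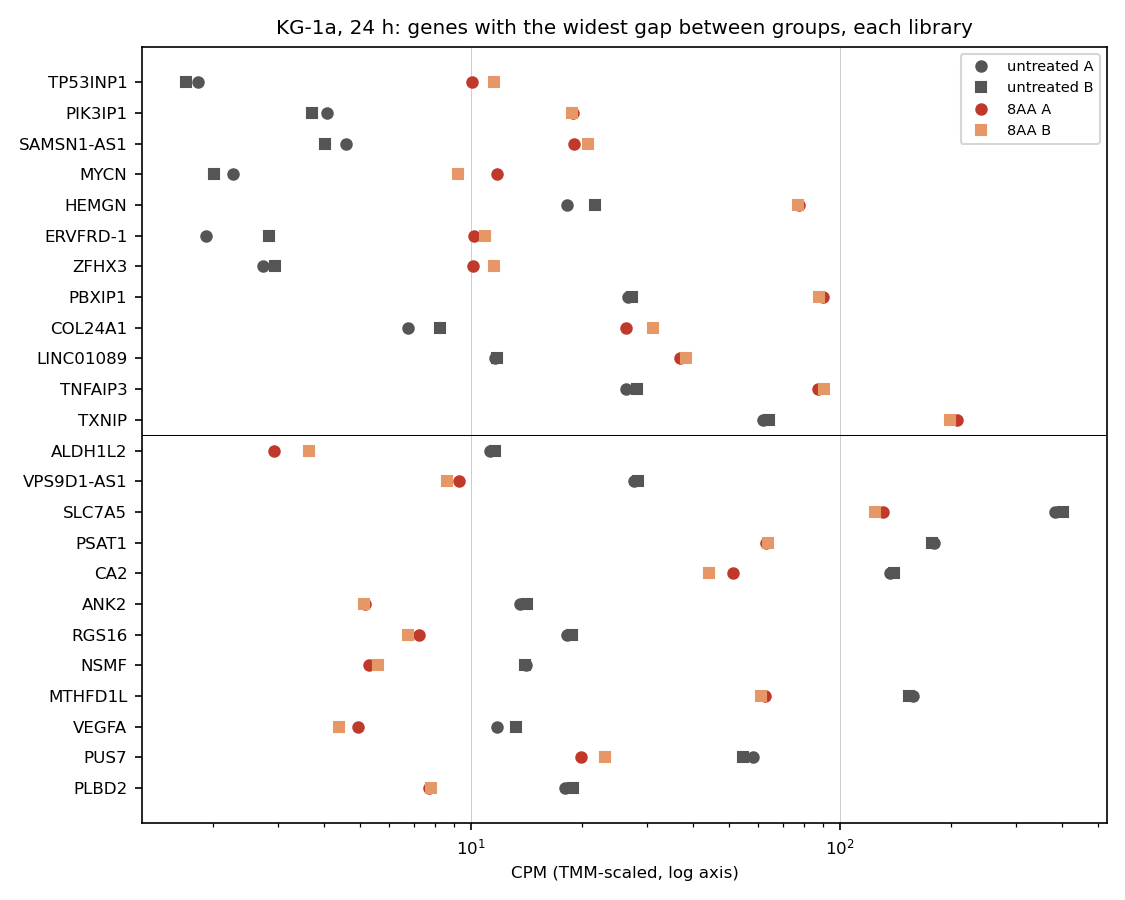
CPM on a log axis of the 12 genes that rose and the 12 that fell with the widest gap between groups, for untreated (grey) and 8AA (red, orange) replicates A (circles) and B (squares). SLC7A5 runs from 384 and 403 CPM untreated to 131 and 125 CPM with 8AA, and separation of the groups is what the genes were chosen by.

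Ribosome biogenesis was lower almost throughout. Of 40 factors tested, 38 fell and 0 rose, against 26.6% of all genes called lower, and the median log2 fold change was -0.79 against 0.01 over all genes. RRP12, a maturation factor of both ribosomal subunits, was at 66.7 and 69.8 CPM untreated and 29.4 and 25.4 CPM with 8AA (-1.31 ± 0.07). UTP20, of the small-subunit processome, fell from 185 and 182 CPM to 77.7 and 79.9 CPM (-1.22 ± 0.05), and the nucleolar helicase DDX21 from 562 and 553 CPM to 244 and 246 CPM (-1.19 ± 0.04). The members that did not pass were TAF1D (0.03) and PPAN (-0.09). The median change was -0.75 in 8AA replicate A and -0.86 in replicate B, and the count of 38 was the same in each of the 16 other settings.

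The structural proteins of the ribosome gave no such count, and their call rested on single libraries. Of 44 cytosolic ribosomal protein genes, 7 were lower (15.9%) and 1 was higher (2.27%), against 26.6% and 25.4% of all genes. Replicate A exceeded replicate B in 44 of 44. Without 8AA replicate A, 35 were lower and 0 higher, and without 8AA replicate B, 3 were lower and 14 higher, so that no direction can be given for this family. Without untreated replicate A or without untreated replicate B, 3 were lower. RPL8 showed the pattern at 1296 and 1366 CPM untreated, 1211 CPM in 8AA A and 1029 CPM in 8AA B. Scaling by library size alone gave 2 lower and 9 higher.

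Among 28 translation factors 22 fell and 2 rose. EIF4EBP1, the repressor of cap-dependent initiation, was at 119 and 125 CPM untreated and 59.4 and 48.5 CPM with 8AA (-1.17 ± 0.08), and the scaffold EIF4G1 fell from 1034 and 1077 CPM to 639 and 584 CPM. The 2 that rose were EIF4B (0.23 ± 0.04) and EEF1G (0.18 ± 0.06). Without 8AA replicate B, 4 translation factors were higher, and without any other 1 of the 4 libraries 1 was. Of 14 genes of purine synthesis and salvage 13 fell, with a median of -0.60, among them PAICS, from 767 and 759 CPM to 450 and 428 CPM, PFAS (-0.82 ± 0.06) and the salvage enzyme APRT (-0.84 ± 0.08). IMPDH2, the remaining member, changed by -0.12 and did not pass.

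Genes induced by the transcription factor ATF4 when amino acids run short were lower as well. Of 28 tested, 24 fell and 1 rose, with a median of -0.68. CHAC1, which degrades glutathione, was at 3.63 and 3.64 CPM untreated and at 0.459 and 0.591 CPM with 8AA (-2.79 ± 0.21; adjusted p = 4.80e-08), the latter from 11 and 12 counts. ALDH1L2, SLC7A5 and PSAT1, given above, belong to this group too. SLC7A5 and PSAT1 have near-identical copies in the genome, as HSPD1, HSPE1 and NOTCH2NL do, and their counts are uncertain to that extent. DDIT3, a stress-induced transcription factor also called CHOP, was the member that rose, from 2.02 and 2.5 CPM to 4.84 and 3.45 CPM (0.89 ± 0.20). CTH, SLC38A2 and CEBPG did not pass. Without 8AA replicate A, 23 fell and 2 rose. Of 20 aminoacyl-tRNA synthetases 18 fell, led by IARS, from 605 and 597 CPM to 269 and 262 CPM (-1.18 ± 0.04), VARS (-1.17 ± 0.06) and GARS (-1.08 ± 0.06). DARS and QARS were the exceptions, at -0.03 and 0.12.

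Promoter sequence is shown for 3 genes that fell and hold a match to a motif given below. The amino acid response element and the E-box are the known elements of these gene groups. Members that fell without a match to their group's motif, such as SLC7A5 and DDX21, are not shown. The 250 bases before the RefSeq start on GRCh38.p14 are printed 5′ to 3′ on the strand of the gene, with matches on either strand in capitals, to TGATGNAA in CHAC1 and ASNS and to CACGTG in UTP20. CACGTG is its own reverse complement, and the bases TG at its end can also begin a match to TGATGNAA.
CHAC1 (chr15:40953221-40953470, plus strand): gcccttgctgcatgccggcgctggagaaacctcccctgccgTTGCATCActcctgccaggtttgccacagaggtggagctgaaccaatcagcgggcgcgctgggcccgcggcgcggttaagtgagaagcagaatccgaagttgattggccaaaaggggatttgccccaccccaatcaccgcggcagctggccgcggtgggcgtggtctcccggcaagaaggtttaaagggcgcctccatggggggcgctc
ASNS (chr7:97872409-97872658, minus strand): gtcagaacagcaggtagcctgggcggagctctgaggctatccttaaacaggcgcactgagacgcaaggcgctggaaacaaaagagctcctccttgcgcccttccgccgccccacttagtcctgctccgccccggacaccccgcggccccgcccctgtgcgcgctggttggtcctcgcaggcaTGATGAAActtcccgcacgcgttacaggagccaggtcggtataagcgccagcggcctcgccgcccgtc
UTP20 (chr12:101279855-101280104, plus strand): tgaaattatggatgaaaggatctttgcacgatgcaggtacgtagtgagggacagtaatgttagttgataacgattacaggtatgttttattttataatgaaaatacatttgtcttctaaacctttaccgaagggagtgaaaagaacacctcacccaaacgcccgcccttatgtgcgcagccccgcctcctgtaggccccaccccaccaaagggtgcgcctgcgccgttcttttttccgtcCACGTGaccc
TGATGNAA stood in 3 of 23 matched promoters of the ATF4 group (13.0%), those of CHAC1, ATF3 and ASNS, and in 2 of 13 synthetase promoters (15.4%), against 1.44% of the 10144 promoters matched to tested genes and 3.19% of all 27305. CACGTG stood in 2 of 35 promoters of ribosome biogenesis factors (5.71%), in 2 of 12 of purine synthesis genes (16.7%) and in 9.16% of those of tested genes. A match is a description of these letters within this window.

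**Figure D4:**
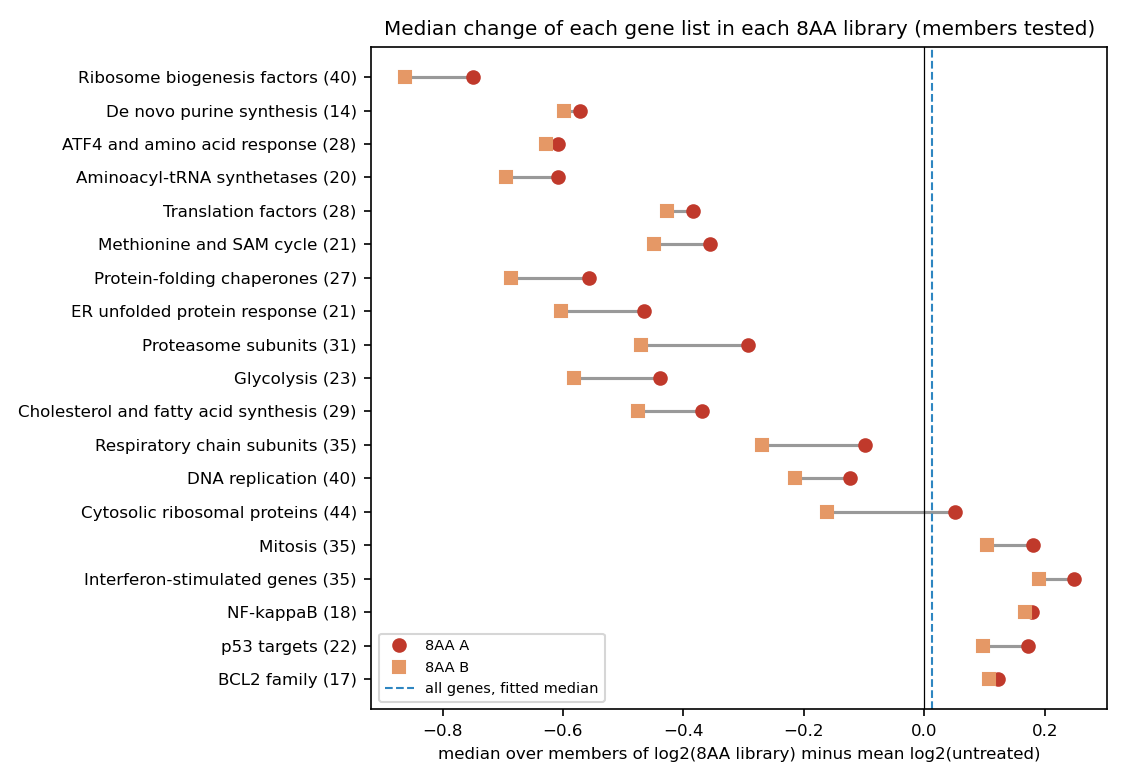
Median over the tested members of each gene list (number in brackets) of the log2 change in 8AA replicate A (circles) and replicate B (squares) against the untreated mean. Ribosome biogenesis factors stand lowest, at -0.75 in A and -0.86 in B, and the medians of ribosomal proteins are 0.05 in A and -0.16 in B.

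Methionine and S-adenosylmethionine (SAM) metabolism, which supplies the methyl group of most methylation reactions, had 14 of 21 tested genes lower and 2 higher, with a median of -0.37. MAT2A, the enzyme that makes SAM, was at 545 and 541 CPM untreated and at 408 and 398 CPM with 8AA (-0.43 ± 0.04; adjusted p = 3.99e-07). Larger changes were seen in the polyamine branch, in SRM, spermidine synthase, from 181 and 189 CPM to 81.8 and 67.4 CPM (-1.31 ± 0.08), and in ODC1, from 499 and 499 CPM to 241 and 210 CPM (-1.15 ± 0.05). GNMT (0.67 ± 0.23) and AHCYL2 (0.29 ± 0.09) rose. GNMT did not pass without untreated replicate A (0.37) or 8AA replicate B (0.41), and AHCYL2 did not without untreated replicate A (0.13).

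METTL16, the methyltransferase that governs MAT2A splicing, was at 77.1 and 82.1 CPM untreated and 67.5 and 60.8 CPM with 8AA (-0.31 ± 0.06; adjusted p = 0.000307). METTL14, a subunit of the main m6A writer, rose from 41.2 and 39.0 CPM to 54.9 and 55.8 CPM (0.46 ± 0.07), while its partner METTL3 was at 91.5 and 88.7 CPM untreated and 97.8 and 87.3 CPM with 8AA and did not pass. The m6A reader YTHDC1 rose (0.38 ± 0.05). Of the cleavage factor subunits, CPSF7 passed at 0.12 ± 0.04, but not without untreated replicate A (0.10) or untreated replicate B (0.13). CPSF6 (0.09 ± 0.06) and NUDT21 (-0.07 ± 0.07) did not pass with both 8AA libraries. CPSF6 passed at 0.19 without 8AA replicate A, and NUDT21 at -0.20 without 8AA replicate B. In all, 5 of the 12 genes tested around MAT2A splicing rose (41.7%) and 1 fell (8.33%), against 25.4% and 26.6% of all genes. Without untreated replicate A or B 3 rose, without 8AA replicate A or B 2 fell, and by library size alone 8 rose.

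Of 14 genes of adenosine uptake and nucleotide conversion 7 fell (50.0%) and 4 rose (28.6%), against 26.6% and 25.4% of all genes. SLC29A1, the main equilibrative nucleoside transporter, was at 114 and 117 CPM untreated and at 60.8 and 52.1 CPM with 8AA (-1.03 ± 0.07). SLC29A2 (-0.84 ± 0.06) and the mitochondrial adenylate kinase AK4 (-0.86 ± 0.05) fell. ADK, adenosine kinase, went from 72.1 and 71.7 CPM to 47.5 and 50.4 CPM (-0.56 ± 0.06; adjusted p = 1.15e-06). ADA, which deaminates adenosine, rose from 200 and 209 CPM to 305 and 274 CPM (0.50 ± 0.05). AMPD3, which deaminates AMP, rose by 0.54 ± 0.05 and the nucleotidase NT5C2 by 0.32 ± 0.04.

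Protein folding and turnover genes were lower. Of 27 chaperones 25 fell, among them the mitochondrial chaperonin HSPD1, from 1303 and 1263 CPM to 647 and 605 CPM (-1.03 ± 0.04), and TRAP1 (-1.05 ± 0.08). In the unfolded protein response of the endoplasmic reticulum 15 of 21 fell, with HSPA5, its central chaperone, at 839 and 860 CPM untreated and 479 and 413 CPM with 8AA. The sensors ERN1, ATF6 and EIF2AK3 had log2 values of -0.09, 0.02 and 0.00 and did not pass. Proteasome subunits fell in 28 of 31, by less, with a median of -0.36, and PSMD11 went from 199 and 199 CPM to 121 and 118 CPM. The proteasome median was -0.29 in 8AA replicate A and -0.47 in replicate B. Replicate A exceeded B in 30 of the 31, so the size of this fall depends on the library.

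In carbon metabolism, 19 of 23 glycolysis genes fell, among them LDHA, lactate dehydrogenase, from 1230 and 1242 CPM to 705 and 628 CPM (-0.89 ± 0.05), and HK2 (-0.85 ± 0.05). ALDOC rose (1.37 ± 0.19). Of 29 genes of cholesterol and fatty acid synthesis 24 fell, with ACACA, the first enzyme of fatty acid synthesis, from 337 and 333 CPM to 179 and 179 CPM. Nuclear-encoded respiratory chain subunits gave 19 lower and 2 higher of 35, with a median of -0.10 in 8AA replicate A and -0.27 in replicate B. Without untreated replicate A 16 were lower and 1 was higher, without untreated replicate B 13 and 0, and without 8AA replicate A 27 and 1. CYCS, cytochrome c, went from 197 and 195 CPM to 94.2 and 115 CPM.

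MYC fell from 441 and 455 CPM to 308 and 265 CPM (-0.64 ± 0.06; adjusted p = 3.61e-07). Its antagonists MXD4, from 35.1 and 35.0 CPM to 96.2 and 87.7 CPM (1.39 ± 0.06), and MXD3 (1.01 ± 0.08) rose, and the antagonist MXI1 (-0.67 ± 0.12) and MLX (-0.52 ± 0.06) fell. Over the network 5 of 12 genes rose (41.7%) and 4 fell (33.3%), against 25.4% and 26.6% of all genes.

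Cell death and p53 genes moved both ways. BMF, a BH3-only activator of apoptosis, rose from 33.4 and 34.9 CPM to 108 and 99.8 CPM (1.61 ± 0.07). BCL2, the target of venetoclax, was at 295 and 289 CPM untreated and at 317 and 341 CPM with 8AA (0.17 ± 0.04; adjusted p = 0.00398), and MCL1, another survival factor, at 197 and 197 CPM and at 192 and 210 CPM, without a call. BID (-0.62 ± 0.07), BAX (-0.47 ± 0.08) and PMAIP1 (-0.45 ± 0.08) fell. The BCL2 family had 8 of 17 higher and 5 lower, and 5 were higher without untreated replicate A or without 8AA replicate A. Of 22 p53 targets 10 rose (45.5%) and 7 fell (31.8%). In the BCL2 family 47.1% rose and 29.4% fell, against 25.4% and 26.6% of all genes. BTG2, an antiproliferative gene, rose from 11.8 and 13.4 CPM to 34.9 and 31.2 CPM, while CDKN1A, the cell cycle inhibitor p21, fell from 6.0 and 5.0 CPM to 3.51 and 3.15 CPM.

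In the cell cycle, 24 of 40 DNA replication genes fell and 2 rose, and 20 of 35 mitosis genes rose and 4 fell. Both changes were small, with medians of -0.16 and 0.16. MKI67, the proliferation antigen, was at 1213 and 1232 CPM untreated and 1753 and 1847 CPM with 8AA (0.56 ± 0.04), and CDC6, which loads the replicative helicase, went from 135 and 135 CPM to 95.9 and 81.9 CPM. Without untreated replicate B 15 replication genes were lower and 1 was higher, and without untreated replicate A 12 mitosis genes were higher. Of the 4 mitosis genes that fell, 1 passed when untreated replicate B was left out and 2 when 8AA replicate B was, while 4 replication genes rose without 8AA replicate B and 1 without untreated replicate A. By library size alone 13 replication genes were lower and 6 higher. CCNE1, cyclin E1, fell from 34.3 and 38.3 CPM to 19.2 and 16.4 CPM (-1.02 ± 0.10).

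Of 18 NF-κB genes 8 rose and 1 fell. Beside TNFAIP3, NFKB2 (0.95 ± 0.08) and BIRC3, an inhibitor of apoptosis from 48.9 and 46.7 CPM to 87.0 and 96.7 CPM, rose. NFKB1 was the member that fell (-0.25 ± 0.05). Interferon-stimulated genes rose in 16 of 35 and fell in 4. IFIT2 went from 12.3 and 11.6 CPM to 21 and 19.1 CPM. Among surface genes of immature blood cells 4 of 18 rose and 3 fell, with CXCR4, the chemokine receptor for marrow homing, from 5.75 and 4.95 CPM to 13.5 and 12.9 CPM (1.30 ± 0.12). A share of 4 in 18 is below the 25.4% of all genes called higher.

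Transcription factors of stem and myeloid cells gave 7 of 17 higher (41.2%) and 3 lower (17.6%), against 25.4% and 26.6% of all genes. ERG, an ETS factor of blood stem cells, rose from 83.1 and 87.0 CPM to 135 and 134 CPM (0.66 ± 0.05), and MYB from 382 and 387 CPM to 476 and 474 CPM. HOXA10 (-0.42 ± 0.05), LMO2 (-0.38 ± 0.07) and CEBPB, of the granulocyte and monocyte lineage (-0.47 ± 0.11), fell. By library size alone or upper-quartile scaling 11 of the 17 rose.

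Genes that respond within minutes to signals gave 7 of 26 higher (26.9%) and 10 lower (38.5%), the first close to the 25.4% of all genes called higher. FOSL1, a subunit of AP-1, fell from 23.4 and 24.4 CPM to 12 and 9.41 CPM (-1.15 ± 0.10), while KLF6, a zinc finger factor, rose from 29.2 and 27.3 CPM to 46.8 and 53.2 CPM. TXNIP and its relatives of the arrestin domain family rose in 5 of 6, ARRDC4 by 0.82 ± 0.11 and ARRDC3 by 0.75 ± 0.10 on the log2 scale. In the glutathione and NRF2 group, which counters oxidation, 12 of 21 fell, with SRXN1, sulfiredoxin, from 72.7 and 76.3 CPM to 47.7 and 45 CPM.

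Among SR proteins and their kinases 6 of 19 rose (31.6%) and 7 fell (36.8%), against 25.4% and 26.6% of all genes. SRSF1, an SR protein, was at 722 and 716 CPM untreated and at 501 and 540 CPM with 8AA (-0.47 ± 0.05), and SRSF5, another, at 310 and 313 CPM and at 451 and 442 CPM (0.52 ± 0.04). Of the kinases that phosphorylate SR proteins, SRPK1 fell (-0.53 ± 0.05) and CLK1 (0.59 ± 0.06) and CLK4 (0.61 ± 0.09) rose. Host genes of small nucleolar RNAs gave 6 higher and 6 lower of 16, with SNHG16 from 205 and 213 CPM to 116 and 104 CPM.

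8CA carries a chlorine where 8AA carries an amino group, at the same position of the adenine base. At the same dose and time in KG-1a, 5336 of 12711 genes (42%) differed between the 2 drugs, 2752 lower with 8AA and 2584 higher. By library size alone, 36.4% of the calls were lower against 51.6%. The ATF4 group stood on the low side of 8AA in 28 of 28 genes, with a median difference of -2.11 log2 against 0.00 over all genes. PSAT1 was at 63.2 and 64.0 CPM with 8AA, at 746 and 760 CPM with 8CA and at 180 and 178 CPM untreated (8AA minus 8CA -3.57, 95% interval -3.67 to -3.46; adjusted p = 5.06e-17). ASNS, asparagine synthetase, was at 15.9 and 13.1 CPM with 8AA and at 120 and 118 CPM with 8CA, and the cystine transporter SLC7A11 at 45.1 and 65.4 CPM against 499 and 529 CPM. Against untreated cells, 27 of these 28 genes rose with 8CA, as did 2972 of all 12711 genes, while 24 fell with 8AA.

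**Figure D5:**
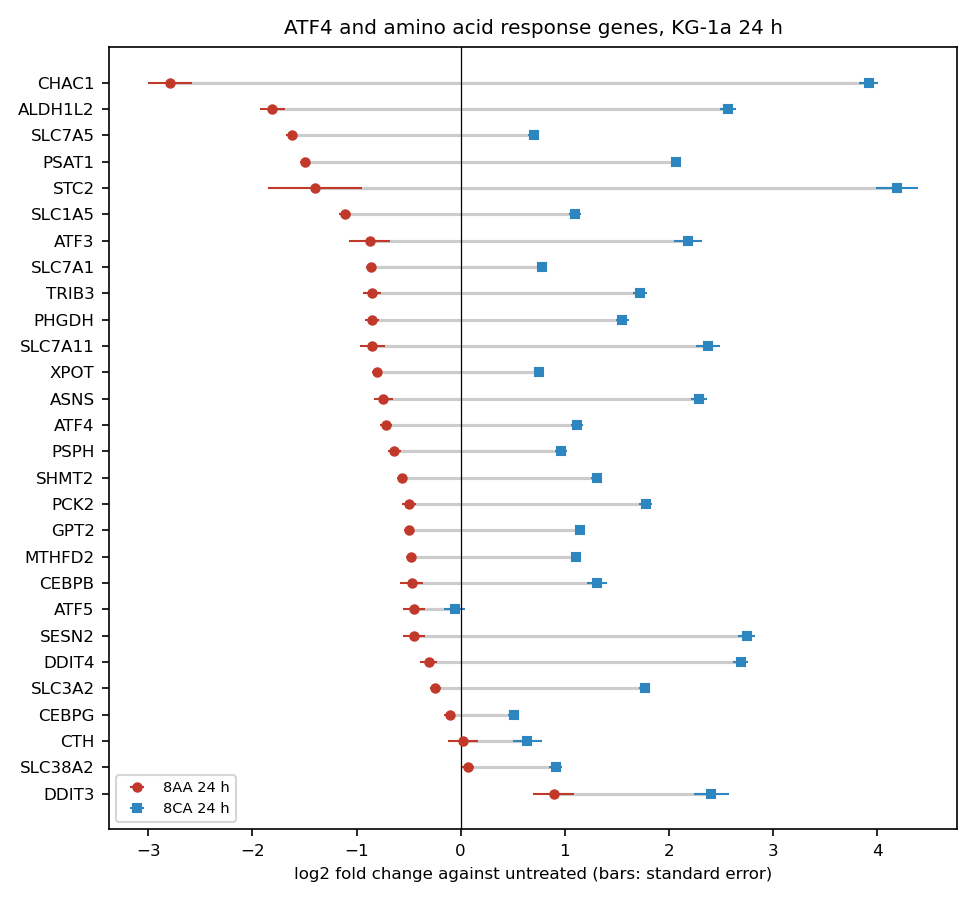
Log2 fold change against untreated KG-1a cells at 24 h of 28 ATF4 and amino acid response genes, with 8AA (circles) and 8CA (squares); bars are standard errors. All 28 lie lower with 8AA than with 8CA, by a median of 2.11 log2 in size.

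Other groups separated the drugs less. Of 20 aminoacyl-tRNA synthetases 17 were lower with 8AA than with 8CA, with a median of -1.12. Against untreated cells, 13 of the 20 rose with 8CA and 6 fell. Of the ribosome biogenesis factors 34 of 40 were lower with 8AA than with 8CA, with a median of -0.47. Proteasome subunits were lower with 8AA in 5 of 31 and higher in 4, shares below those of all genes (2752 and 2584 of 12711). PSMD11 differed by -0.04 (interval -0.13 to 0.05). HSPE1 differed by 0.06 (interval -0.13 to 0.25) and BCL2 by -0.02 (interval -0.12 to 0.07), which did not pass. MAT2A was lower with 8AA by 0.20 log2 in size (difference -0.20, interval -0.28 to -0.11), METTL16 by -0.43 (interval -0.55 to -0.31) and MYC by -0.95 (interval -1.08 to -0.82). Cholesterol and fatty acid genes went the other way, higher with 8AA than with 8CA in 21 of 29. Among genes whose log2 CPM averaged 4 or more in the KG-1a libraries, those furthest above 8CA were CCDC162P, MXD4, HEMGN and IKZF3, with differences of 1.29 to 1.64. MXD4 was at 96.2 and 87.7 CPM with 8AA and at 35.9 and 36.9 CPM with 8CA.

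The 24 h change differed from the 8 h change of the same drug in 2330 of 12711 genes (18.3%), 1359 of them lower at 24 h. By library size alone 41.7% of the calls were lower and by upper-quartile scaling 39.2%, against 58.3%. The count was 1358 without the 8 h 8AA replicate A, 1538 and 1504 without the untreated 24 h replicates A and B, and 3981 without the 24 h 8AA replicate A. Proteasome subunits fell further in 26 of 31, chaperones in 20 of 27 and ribosome biogenesis factors in 26 of 40. At 8 h, 1 proteasome subunit was lower and 36 ribosome biogenesis factors were, against 2291 of all 12711 genes. Genes called at least 2-fold higher at 8 h numbered 116, and their median change at 24 h was 1.04 in 8AA replicate A and 1.20 in replicate B. The 121 genes at least 2-fold lower at 8 h had medians of -0.64 and -0.68 at 24 h. At 8 h itself the medians of the higher and the lower set were 1.24 and -1.33. Both sets were picked by their 8 h values, which favors a smaller change at 24 h. DUSP6, a phosphatase of ERK, was at 37.6 and 38.2 CPM untreated and 8.60 and 9.14 CPM with 8AA at 8 h, and at 43.7 and 40.5 CPM untreated and 25.4 and 22.8 CPM with 8AA at 24 h.

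Between the cell lines, the 24 h change with 8AA differed in 3130 of 14055 genes (22.3%), 61.8% of them lower in KG-1a. That share was 46.0% by library size alone, 48.1% by upper-quartile scaling and 41.0% without the KG-1a 8AA replicate B. Ribosome biogenesis factors fell further in KG-1a in 36 of 40, with a median of -0.79 there and -0.18 in MV4-11. The change of mitosis genes was higher in KG-1a in 31 of 35, and 34 of 35 fell in MV4-11. Over all 14055 genes these counts were 1196 and 1707. MAT2A changed by -0.43 in KG-1a and by 0.02 in MV4-11, without a call in the latter, and the difference was -0.45 (adjusted p = 2.09e-06). MYC changed by -0.64 and 0.11, a difference of -0.75.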

How the data were processed

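RNA-seq of 24 libraries was used, 12 of them from KG-1a. The authors deposited raw counts per gene for 23354 genes, 0 of them mitochondrial, made per the labels with Trimmomatic, STAR 2.6.0, HTSeq 0.11.1 and edgeR. The labels list 2 genome builds without a role and no strand setting, so gene coordinates of the table are not printed, and reads of paralogs, pseudogenes and antisense or overlapping genes may be shared. Groups came from the labels.

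From the counts, genes were filtered with filterByExpr (minimum count 10), scaled by TMM and tested by the quasi-likelihood test of edgeR 4.0.16 in R 4.3.3, over the 12 KG-1a libraries with 1 coefficient per group (12711 genes). The comparison between lines used all 24 libraries (14055 genes). Adjustment was Benjamini-Hochberg over all genes tested, with a threshold of 0.05. Errors are standard errors, and CPM are TMM-scaled, over the KG-1a libraries except for line markers. The test takes its error from the spread between replicates pooled over all groups in the fit, not from the compared groups alone. The KG-1a 8AA pair at 24 h differed more than the other KG-1a pairs. Its chi-square per degree of freedom was 12.3, against 1.43 to 3.59. Standard errors, intervals and p-values for that group may therefore understate its own spread.

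The members and the 44 gene lists, written from general knowledge and partly sharing genes, were chosen with earlier results of these data known. Named genes are, per list, up to 3 called in each direction by size of change, 11 genes of the study, the 12 called in each direction with the widest gap between groups (log2 CPM averaging 2 or more), the 5 furthest apart in each direction between the 8AA replicates, and for each difference the 4 largest per direction (the last 2 sets with log2 CPM averaging 4 or more); a few further members are named to account for their list. Replicate letters were not taken as pairs, since same-lettered deviations did not all correlate positively. Other scalings, filters, fits, DESeq2 1.42.0, limma 3.58.1 with voom, omission of libraries and removal of length and GC trends were tried. Of the genes so chosen, 1 is not reported here. Promoters came from RefSeq (GRCh38.p14), and 10144 tested genes matched.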

Additional observations from a re-analysis of the deposited data

Results flagged for a closer look

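Groups of 2 libraries were not tested for outlying libraries. The results below were picked because the change with 8AA at 24 h in KG-1a differed from the change at 8 h or in MV4-11, by a test of the difference itself in edgeR with adjustment over all genes.

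Between 24 h and 8 h, 2330 genes differed. RAB37 differed by 1.47 log2, from 19.2 and 20.3 CPM untreated and 18.4 and 17.2 CPM with 8AA at 8 h to 23.1 and 26.7 CPM untreated and 66.5 and 57.2 CPM with 8AA at 24 h. SPOCK2 differed by 1.39, ETV5 by 1.31 and DUSP6 by 1.29, the last 2 being lower at both times and less so at 24 h. PLBD2 (-1.05), VARS (-0.91), ENDOD1 (-0.91) and PSAT1 (-0.90) were lower at 24 h relative to 8 h. Of the genes that the study follows, BCL2 differed by 0.41, being lower at 8 h (-0.23) and higher at 24 h (0.17), and ADK by -0.38. METTL16 differed by -0.29 and MYC by 0.26, and both lost the call when some single libraries were left out, METTL16 without the 8 h 8AA replicate A (-0.27), the 8 h untreated replicate B (-0.28) or the 24 h untreated replicate B (-0.25). MYC lost it without any one of the untreated or 8AA libraries at 8 h or either 24 h untreated library, with differences of 0.21 to 0.31.

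Between the lines, 3130 genes differed. TNFAIP3 differed by 1.84, with 562 and 581 counts untreated and 512 and 518 counts with 8AA in MV4-11. LOC646214 differed by 1.84 and VPS9D1-AS1 by -1.78. The values of ZNF439 (2.57), LEF1 (2.22), DNAJC6 (-2.30) and GPAT3 (-1.67) rest on 0 to 10 counts per MV4-11 library, so their size depends on the prior count of the fit. ZNF439, LEF1, DNAJC6 and GPAT3 lost the call when single MV4-11 libraries were left out, at 2.14, 1.22, -1.17 and -1.25 in the smallest case. Of the study's genes, MAT2A differed by -0.45, METTL14 by 0.38, CPSF7 by 0.23, ADK by -0.36 and MYC by -0.75.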

How the results depend on the processing

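The 6600 calls of 8AA against untreated stayed between 5136 and 7269 in the other settings. With a fold change of at least 2 they were 597, of which 161 were lower and 436 higher, against 3376 and 3224. The same fold left 431 of the 5336 genes differing between drugs, 164 of the 2330 differing between times and 289 of the 3130 differing between lines. Leaving out 1 library at a time gave 5248 to 7001 calls for 8AA, 3820 to 5961 between drugs, 1358 to 3981 between times and 2422 to 3476 between lines. DESeq2 gave 5506 calls and voom with sample weights 5281, with weights of 0.32 and 0.33 for the 8AA libraries against 0.84 to 1.47 for the other KG-1a libraries.

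The replicate letters did not mark shared cultures in the labels. With the letter as a replicate block, calls were 6873, and 5671 between drugs, 2638 between times and 3037 between lines. The deviations of same-lettered 8AA and untreated libraries at 24 h correlated at -0.33, and those of the 8AA libraries at 24 h with the other 4 KG-1a groups at 0.19 to 0.55. A block with the untreated letters exchanged, chosen after seeing the data, gave 7161 calls. Removing trends with length and GC content, also chosen after seeing the data, gave 7269, with 57.6% lower. Of 582 called genes among list members and the other named genes, 456 kept direction and call in all 16 other settings. Some of the named genes were chosen by wide gaps in these data, which favors this. Depth was not varied, and with 2 libraries per group a spread cannot be assigned to either library.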
